A study of Homo sapiens with 15 samples.

Results

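Ribosome biogenesis and MYC target genes were followed in a human colorectal cancer cell line that had lost USP7 and had it switched back on. The set holds 41 genes, listed by symbol: most of them build the ribosome, and the others make polyamines and pyrimidines or carry proteins into the nucleus. All 41 were found in the deposited table of 22706 genes by Ensembl identifier, and all 41 were among the 15134 genes with enough signal to be tested. They were chosen with earlier results of these data known, so the counts below describe the set. In the USP7 knockout 37 of them were higher than in parental cells and 1, UTP20, was lower, beside 24.8% of all tested genes in each direction. With USP7 switched on for 1 day, 28 were lower than in the knockout and none was higher, beside 5.97% of all tested genes lower and 4.94% higher. The day 1 count ran from 15 to 34 with 1 library left out and was 10 when only the 6 libraries compared were fitted.

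The cells were DLD1, an established human colorectal cancer line, and each of 5 groups had 3 libraries, which the labels call biological triplicates without stating separate cultures or dates. WT is the untreated parental line. KO is the USP7-KO line without doxycycline, which also carries a GFP-USP7 gene under a doxycycline-driven promoter (the pTREG-BI-USP7 plasmid), the Tet-ON activator plasmid pEF1α-Tet3G and G418 resistance. The other groups are the same KO line given doxycycline at 1 µg/ml for 1, 3 or 9 days, here called day 1, day 3 and day 9. WT carries none of these plasmids, so loss of USP7 and any other difference between the lines cannot be told apart in KO against WT. Parental cells given doxycycline were not analysed here, so an effect of the drug and of USP7 cannot be told apart either. USP7 is a deubiquitinase, an enzyme that takes ubiquitin off other proteins, among them the p53 ligase MDM2 and subunits of Polycomb complexes.

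Ribosomes are made in the nucleolus. RNA polymerase I copies the ribosomal DNA into a long precursor, small nucleolar ribonucleoproteins (snoRNPs) guide its chemical modification, and large assemblies of factors fold, cut and export the pre-40S and pre-60S particles. Many genes of this pathway are direct targets of the transcription factor MYC, which with its partner MAX binds E-boxes, most strongly the sequence CACGTG. In colorectal cancer MYC is a classical target of Wnt signalling, and high output of ribosomes goes with fast growth.

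Expression is given as normalized counts, the authors' read counts per gene divided by a size factor of the library. Each library summed to between 14741459 and 15347353 normalized counts. USP7 itself was 3392 ± 25.4 normalized counts in WT and 1389 ± 17.6 in KO (mean ± SD, n = 3, as for every mean below), and 8239 ± 375, 7828 ± 341 and 4788 ± 336 at days 1, 3 and 9, so the order of USP7 levels followed the labels, and was at its highest at day 1. Transcripts of the transgene and of the cells' own gene cannot be told apart in a gene total. Columns of the WT, KO and day 1 libraries (9) carry 1 code in their names and those of days 3 and 9 (6) another. What the codes stand for is not stated. Day 3 or day 9 against KO or WT thus cannot be told apart from a difference between the codes. KO against WT and day 1 against KO lie within 1 code.

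The epithelial markers EPCAM, CDH1, KRT8, KRT18, KRT19 and CDX2, all 6 present, summed to between 96874 and 99374 normalized counts in WT libraries and between 148590.1 and 154705 in KO. Their sum was 125917 to 146235 at day 1, 139243 to 150980.0 at day 3 and 100454 to 106111 at day 9, so it too was higher in KO than in WT and lower again at day 9. All 6 had a higher mean in KO than in WT or at day 9, and KRT8 and KRT18 were the largest parts of the sum. EPCAM did not pass at day 9 against KO (log2 change -0.12, adjusted p = 0.0763). CDH1 was called higher than KO at days 1 and 3 (0.11 and 0.09). The part of these markers in the results below was not tested. Of 5 blood-cell markers, CD68 and HBB were in the table, and their sum was 0 to 2 in KO, 0 to 11 at day 1, 7.9 to 10.9 at day 3, 8.9 to 11 at day 9 and 0 to 102.5 in WT; the highest was WT replicate 3, where HBB alone gave it and CD68 was at 0. Of 6 fibroblast and endothelial markers, 3 were in the table and summed to between 86.7 and 175.3. In bulk RNA, fewer cells of a type and less RNA per cell cannot be told apart.

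The promoters of these genes were searched for the MYC-type E-box. RefSeq (GRCh38.p14) gave a window from 250 bases before to 50 after the start site for 35 of the 41 genes (10 of them with more than 1 window). CACGTG, which reads the same on both strands, was in at least 1 window of 20 of the 35 (57.1%). It was in 37 of 137 other ribosome biogenesis genes with a window (27%) and in 1343 of 10793 tested genes with a window (12.4%). Over all genes with a window the share was 8.77%, and counted per window it was 7.26%. The set is named for MYC targets, so a high share of this motif can follow from the choice of genes. The related CACGCG, searched on both strands, was in 10 of the 35 (28.6%) and in 22.3% of the tested genes. In 18 of the 20 genes the first base of the nearest CACGTG lay within 50 bases of the start site. Over all tested genes with a window, it was in 12.7% of tested genes higher in KO, 11.2% of those lower and 13% of those that did not pass.

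The upstream sequences below belong to SRM, the gene with the largest rise, NOP16, the gene with the second largest rise, and UTP20, the gene that fell. They are printed 5′ to 3′ on the gene's own strand from RefSeq GRCh38.p14, with CACGTG in capitals, and end at the base before the start site. SRM, chr1:11060019-11060268, minus strand, holds the motif far upstream, with its first base 199 bases before the start. UTP20, chr12:101280005-101280104, plus strand, holds it 10 bases before the start. NOP16, chr5:176388599-176388698, minus strand, does not hold these letters in its window.
SRM: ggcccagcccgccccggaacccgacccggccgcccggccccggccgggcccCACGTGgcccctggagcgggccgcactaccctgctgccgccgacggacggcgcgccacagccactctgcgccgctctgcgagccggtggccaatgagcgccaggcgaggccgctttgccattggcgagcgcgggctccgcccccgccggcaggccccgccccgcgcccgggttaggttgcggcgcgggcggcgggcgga
UTP20: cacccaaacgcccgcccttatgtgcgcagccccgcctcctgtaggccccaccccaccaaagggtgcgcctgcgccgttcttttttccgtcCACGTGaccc
NOP16: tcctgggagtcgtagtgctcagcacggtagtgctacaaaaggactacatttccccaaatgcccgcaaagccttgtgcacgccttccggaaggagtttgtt

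The 30 bases around the E-box are shown next for 8 further genes, to set its neighbours side by side. They are FBL (chr19:39846356-39846385, minus strand), RRP9 (chr3:51941892-51941921, minus), NOP14 (chr4:2963374-2963403, minus), PNO1 (chr2:68157885-68157914, plus), PES1 (chr22:30591880-30591909, minus), NAT10 (chr11:34105602-34105631, plus), MYBBP1A (chr17:4555340-4555369, minus) and IPO4 (chr14:24188828-24188857, minus). All 8 have the CACGTG core within 50 bases of the start site.
FBL: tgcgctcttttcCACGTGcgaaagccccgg
RRP9: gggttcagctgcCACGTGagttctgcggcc
NOP14: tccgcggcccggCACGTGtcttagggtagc
PNO1: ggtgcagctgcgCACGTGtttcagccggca
PES1: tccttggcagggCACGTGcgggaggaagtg
NAT10: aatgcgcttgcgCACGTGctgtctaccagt
MYBBP1A: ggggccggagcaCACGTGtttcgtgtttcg
IPO4: tgtcagaacctcCACGTGctgtccctcccc

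The median change of the genes with CACGTG was 0.41 in KO against WT (log2, 18 of 20 higher and 1 lower) and that of the genes without it was 0.31 (13 of 15 higher). These medians are a description, and the difference between them was not tested.

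The knockout line expressed nearly the whole set at higher levels than the parental line. In KO against WT, 37 of the 41 genes were higher, 1 was lower and 3 (PPAN, ODC1 and CAD) did not pass an adjusted p of 0.05. Among all genes tested 24.8% were called higher and 24.8% lower. The median standard error of a log2 change was 0.058 over the 41 and 0.087 over all genes, so smaller changes could pass in the set. The median change was 0.35 on the log2 scale, or 1.27-fold, against 0.00 for all genes. The rises were modest: the quartiles lay at 0.29 and 0.47, and the largest was 0.80. The SD within a group was 4.32% of the mean at the median and ran from 0.158% to 18.6%. The median change was larger than the median SD, which does not show this for each gene. Of the 37 higher calls, 36 held under every other setting run, including each library left out in turn. The exception was IPO4, an importin gene of low count (0.33 to 0.36 and not passing without WT replicate 1, WT replicate 2 or any 1 KO library, without the filter on low values, and by the authors' deposited table).

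**Figure D1:**
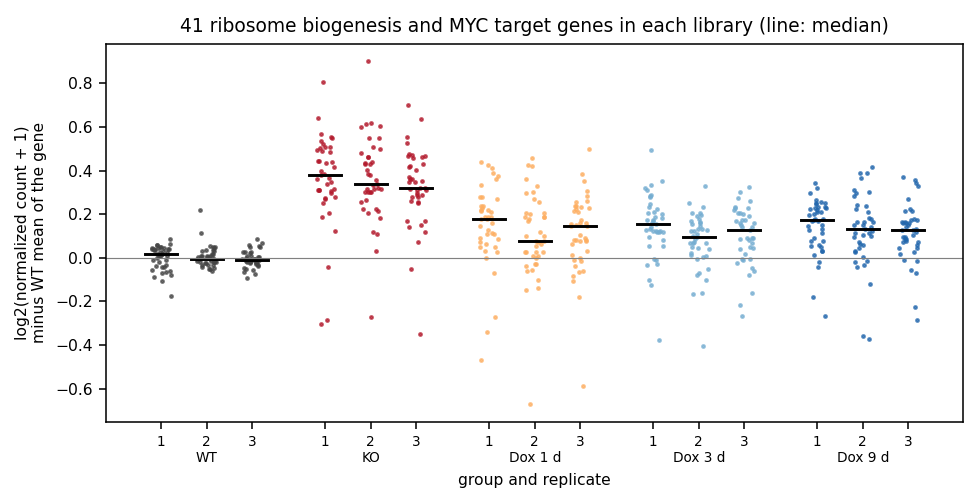
Each point is 1 of the 41 genes in 1 library, as log2(normalized count + 1) minus the mean of that gene in WT, and each black line is the median of the genes in that library. The medians lie at 0.32 to 0.38 in the KO libraries and at 0.08 to 0.18 in the doxycycline libraries.

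Read library by library, as in the plot of the genes in each library, the median of the 41 genes lay between -0.01 and 0.02 around the WT mean in WT and between 0.32 and 0.38 in KO. The groups did not overlap. The same median over all genes lay within 0.01 of 0 in every library. The authors' scaling of the libraries largely sets it there, so it is no check for a change shared by all genes.

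The polyamine and nucleotide genes held the largest rise of the set and 2 of the 3 genes that did not pass. SRM (ENSG00000116649), spermidine synthase, which makes spermidine from putrescine, was at 1057.5, 1127 and 1079 normalized counts in the WT libraries and at 1904, 2034 and 1772 in KO. All KO libraries lay well above all WT libraries, a 1.75-fold rise (log2 change 0.80 ± 0.06 (SE), adjusted p = 1.38e-09). ODC1, ornithine decarboxylase, the rate-limiting enzyme of the same pathway and a textbook MYC target, was 4958 ± 168 in WT and 5318 ± 91.9 in KO (log2 change 0.10 ± 0.06 (SE), adjusted p = 0.161). Its KO libraries all lay above its WT libraries, and it passed at 0.10 when only the 6 libraries compared were fitted. CAD (ENSG00000084774), the enzyme that starts pyrimidine synthesis, was at 3968, 4281 and 4141 in WT and 4007, 4476 and 3988 in KO. Those libraries overlapped, and the change was 0.01 with a 95% interval of -0.10 to 0.12 (adjusted p = 0.909).

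All 5 genes of RNA polymerase I transcription were higher, with a median of 0.35. MYBBP1A (ENSG00000132382), a nucleolar protein that binds MYB and takes part in ribosomal RNA synthesis, was at 1687, 1798 and 1794 in WT and 2482, 2674 and 2427.5 in KO, with no overlap (log2 change 0.52 ± 0.07 (SE), adjusted p = 6.49e-06). TCOF1 (ENSG00000070814), which encodes treacle, the nucleolar protein that helps recruit the polymerase to ribosomal DNA, was at 3163, 3434.5 and 3486 in WT and 4718.5, 4924 and 4658 in KO, again apart (log2 change 0.50 ± 0.05 (SE), adjusted p = 1.22e-08). The polymerase's own large subunits were also higher, POLR1A by 0.21 ± 0.04 (SE, adjusted p = 0.000397) and POLR1B by 0.35 ± 0.06 (SE, adjusted p = 0.000127). NOLC1, a chaperone of snoRNPs, changed by 0.29 ± 0.05 (SE, adjusted p = 0.000117).

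The 6 snoRNP genes were all higher, and 5 of them lay between 0.26 and 0.35. FBL (ENSG00000105202), fibrillarin, the methyltransferase of the box C/D snoRNPs, was at 2689, 2683 and 2654 in WT and 3883, 3777 and 3704 in KO. These sets stood far apart, and the change was the largest of the 6 (log2 change 0.50 ± 0.04 (SE), adjusted p = 8.6e-09). Its box C/D partners NOP56 and NOP58 changed by 0.35 and 0.34. Of the box H/ACA proteins, the pseudouridine synthase DKC1 changed by 0.31, NHP2 by 0.32 and GAR1 by 0.26.

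Of 6 genes of the small-subunit processome, the assembly that forms on the early precursor, 5 were higher and 1 was lower. RRP9 (ENSG00000114767), a U3 snoRNP protein, was at 489, 570.4 and 526 in WT and 776, 811 and 761 in KO, with no overlap (log2 change 0.57 ± 0.08 (SE), adjusted p = 2.78e-06). NOP14, a processome factor, changed by 0.46, the RNA acetyltransferase NAT10 by 0.20, WDR43 by 0.25 and the helicase DDX10 by 0.22. UTP20 (ENSG00000120800), a very large repeat protein of the same assembly, went the other way: 1358.5, 1316 and 1320.1 in WT and 1093, 1104 and 1046 in KO. Every KO library lay below every WT library (log2 change -0.30 ± 0.07 (SE), adjusted p = 0.00171). The later small-subunit factors BYSL, PNO1 and RRP12 were all higher, by 0.39, 0.45 and 0.47. RRP12 (ENSG00000052749), needed for export of the subunits, was at 1006, 1038 and 1049.5 in WT and 1403, 1509.9 and 1375.5 in KO (adjusted p = 9.81e-07), with no overlap.

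Large-subunit assembly was the biggest group, and 13 of its 14 genes were higher, with a median of 0.36. NOP16 (ENSG00000048162), a nucleolar protein of pre-60S particles, was at 575, 582 and 609 in WT and 919.8, 892 and 917 in KO. The libraries stood clearly apart, and the rise was 1.54-fold (log2 change 0.63 ± 0.07 (SE), adjusted p = 1.32e-07). BOP1 (ENSG00000261236) forms the PeBoW complex with PES1 and WDR12, which is needed to process the large-subunit RNA. BOP1 was at 861, 919 and 948 in WT and 1346, 1389.5 and 1334 in KO, apart but with a wide error (log2 change 0.58 ± 0.14 (SE), adjusted p = 0.00541). Its partner PES1 changed by 0.44 ± 0.06 (SE, adjusted p = 2.88e-06) and WDR12 by 0.29 ± 0.07 (SE, adjusted p = 0.00221). The nucleolar GTPase GNL3 (nucleostemin) changed by 0.49, EBNA1BP2 by 0.47, MRTO4 by 0.38 and NIP7 by 0.37. LYAR, RRS1, WDR74, LAS1L and NOP2 were higher by 0.29 to 0.35.

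PPAN (ENSG00000130810), a factor of large-subunit assembly, was the only gene of the set that passed in none of the 6 comparisons. It was low, at 81.7, 108 and 89.5 in WT and 74.7, 94.6 and 100.5 in KO, and these overlapped (log2 change -0.05, 95% interval -0.35 to 0.25, adjusted p = 0.797). In GENCODE 29, 56% of the exon bases of PPAN are shared with the readthrough gene PPAN-P2RY11 on the same strand, so reads there may have been counted for neither gene and the total is uncertain. The same holds for IPO4, which shares 69.3% with AL136295.4, and for NOP2, which shares 54.4% with AC006064.6. The strand setting of the counts is not stated, so genes on the opposite strand may matter as well. Such overlaps include 27.4% of the exon bases of NHP2, 20.2% of NIP7, 18.8% of EBNA1BP2, 17.1% of NOP14 and 12% of NOP16.

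The 3 scaffold and helicase genes of the nucleolus were all higher. NPM1 (ENSG00000181163), nucleophosmin, was at 13592, 12780.0 and 13308 in WT and 18729.6, 17905 and 18420.5 in KO, with no overlap (log2 change 0.47 ± 0.05 (SE), adjusted p = 1.63e-07). DDX21 changed by 0.48 ± 0.06 (SE, adjusted p = 3.33e-07) and NCL, nucleolin, by 0.22 ± 0.05 (SE, adjusted p = 0.000535). NPM1 has 45 named pseudogenes, 28 of them in the table with a summed mean of 469 normalized counts, so reads may have been split among the copies. IPO4 (ENSG00000196497), an importin for histones and ribosomal proteins, was at 71.8, 71.9 and 78.6 in WT and 95.7, 92.6 and 95.5 in KO (log2 change 0.35 ± 0.13 (SE), adjusted p = 0.036).

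**Figure D2:**
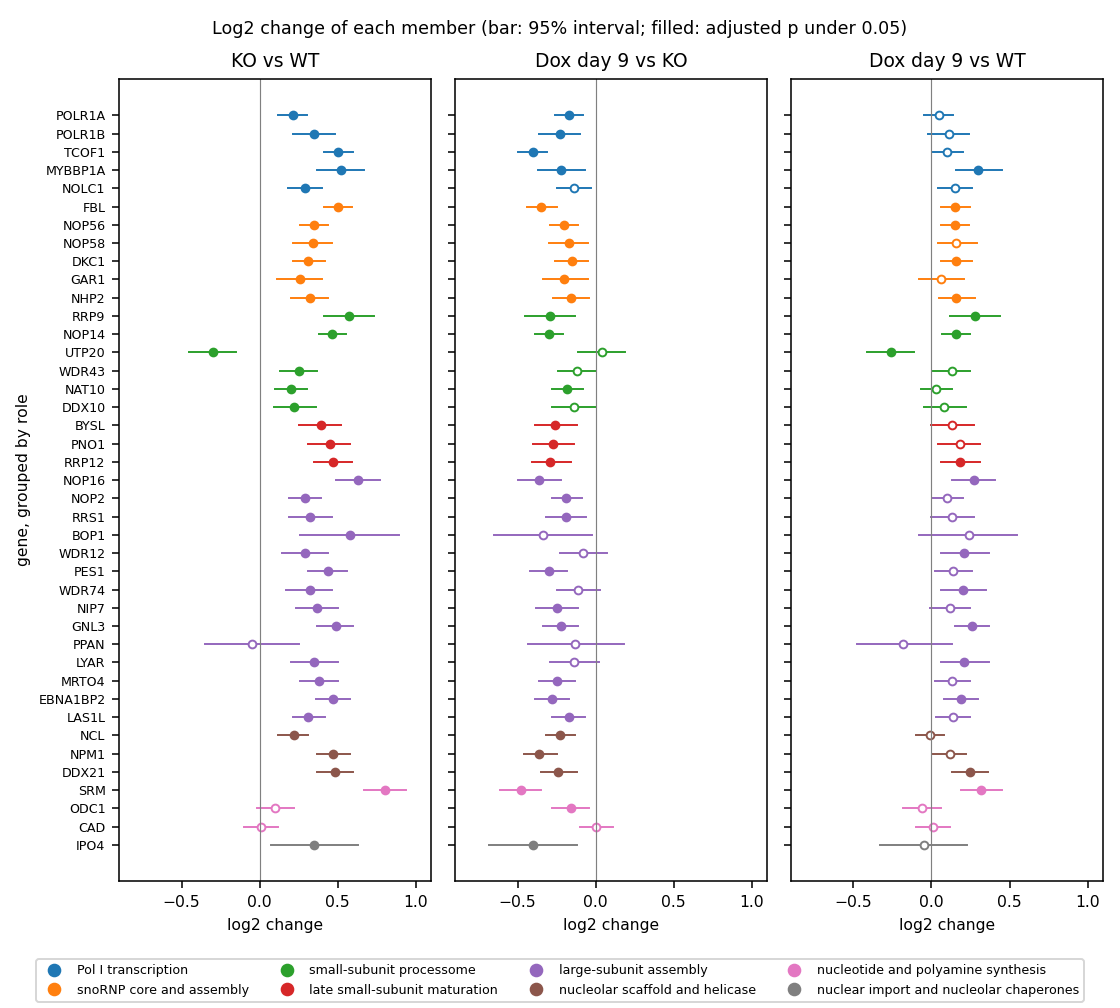
Log2 change of each gene in KO against WT, day 9 against KO and day 9 against WT, with its 95% interval as a bar, coloured by role; filled points passed an adjusted p of 0.05. In KO against WT all points but UTP20 and PPAN lie right of 0, and SRM is the farthest at 0.80.

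The plot of changes by gene sets the roles side by side. The medians by role ran from 0.24 for the processome to 0.47 for the scaffold proteins, apart from the polyamine and nucleotide genes at 0.10.

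Beyond the 41, the rest of the pathway was read from 161 other genes of ribosome biogenesis and linked metabolism, 160 of which could be tested. In KO against WT 87 were higher and 7 lower, with a median of 0.18, beside 24.8% of all genes in each direction. In the processome list 22 of 39 were higher and none lower, among them NOL6 (0.51), WDR3 (0.53) and UTP4 (0.40). In late small-subunit maturation 7 of 11 were higher and none lower, with TSR1 at 0.44, the 18S methyltransferase gene BUD23 at 0.35 and LTV1 at 0.41. In snoRNP assembly 4 of 11 were higher and none lower, with the ATPase RUVBL1 at 0.42, the box C/D protein SNU13 at 0.28 and the assembly factor NAF1 at 0.38. Of 43 large-subunit genes 27 were higher and 1 lower. RRP1B, NOC2L and BCCIP were higher by 0.46, 0.49 and 0.47. EFL1, the GTPase that releases the anti-association factor eIF6 from the large subunit, went from 632 ± 21.6 to 396 ± 24.7 normalized counts (log2 change -0.67 ± 0.08 (SE), adjusted p = 4.44e-07).

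In the RNA polymerase I list 4 of 13 were higher (30.8%) and 3 lower (23.1%), shares near the 24.8% of all tested genes in each direction, with a median of 0.06. The polymerase subunit gene POLR1G was 384 ± 6.5 in WT and 565 ± 31.7 in KO, higher by 0.55 ± 0.07 (SE, adjusted p = 8.43e-07). POLR1H, another subunit, fell from 403 ± 34.0 to 255 ± 7.8 (log2 change -0.66 ± 0.10 (SE, adjusted p = 1.29e-05)). TAF1B, a subunit of the promoter selectivity factor SL1, fell from 511 ± 18.8 to 328 ± 21.6 (log2 change -0.64 ± 0.09 (SE, adjusted p = 4.18e-06)). Of 14 genes of the RNA exosome, which trims the precursors, 6 were higher (42.9%) and 1 lower (7.14%): EXOSC5 changed by 0.49, the helicase MTREX by 0.27, EXOSC7 by 0.27 and EXOSC6 by -0.31. Of 20 nucleotide, one-carbon and polyamine genes 12 were higher (60%) and 1 lower (5%). GART of purine synthesis changed by 0.46, AHCY, which clears S-adenosylhomocysteine, by 0.33 and the mitochondrial folate enzyme MTHFD2 by 0.39, while IMPDH2, which commits purines to guanine nucleotides, changed by -0.24 ± 0.04 (SE, adjusted p = 4.77e-05). In the list of import factors and chaperones 5 of 9 were higher (55.6%) and 1 lower (11.1%), with AAMP at 0.52, the nucleoplasmin-family gene NPM3 at 0.30 and the importin KPNA2 at -0.47 ± 0.05 (SE, adjusted p = 6.69e-08).

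With USP7 switched on for 1 day, levels across the set were lower than in KO. In day 1 against KO, 28 of the 41 genes were lower and none higher, beside 5.97% of all tested genes lower and 4.94% higher. The median change was -0.21 against -0.01 for all genes, and every one of the 41 had a negative change. The count depended on single libraries: leaving out KO replicate 1 gave 15, KO replicate 2 gave 18, day 1 replicate 3 gave 17 and day 1 replicate 1 gave 34. It was 10 when only the 6 libraries compared were fitted, and no gene of the set was called higher under any setting run. The 9 genes called lower under every setting were SRM, NOP16, TCOF1, RRP12, FBL, NOP14, NOP56, MRTO4 and NOP2.

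**Figure D3:**
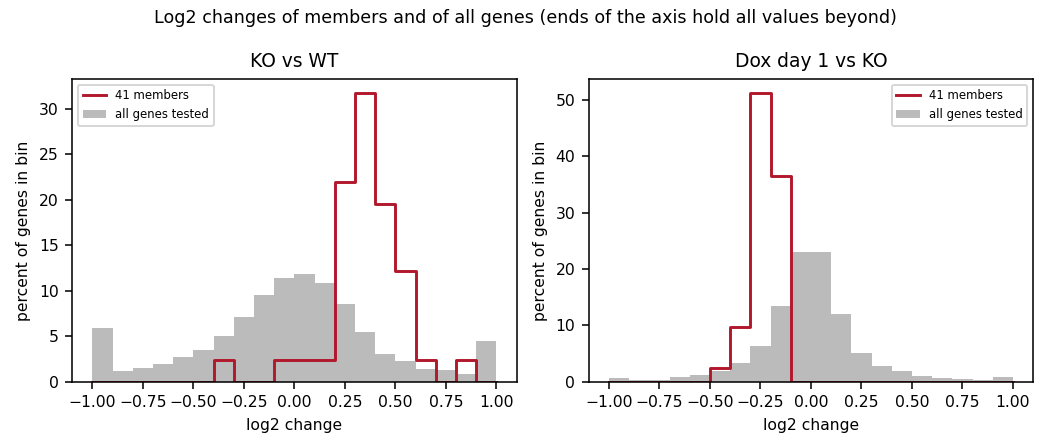
Share of genes in each bin of log2 change for the 41 genes (line) and for all genes tested (grey), in KO against WT and in day 1 against KO; the end bins hold all values beyond. The genes of the set sit to the right of the bulk in KO and to the left at day 1, with medians of 0.35 and -0.21.

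The histogram of changes sets the genes beside all genes tested. At day 1 the changes of the 41 ran from -0.48 to -0.13, with quartiles at -0.25 and -0.18, while the quartiles of all genes lay at -0.12 and 0.10. These comparisons share the KO libraries, so their values are given side by side and not as separate evidence.

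SRM again moved most. At day 1 it was at 1237, 1455 and 1391, below all KO libraries and above all WT libraries (log2 change -0.48 ± 0.06 (SE), adjusted p = 3.74e-05). NOP16 was at 684, 711 and 695, also between the 2 lines (log2 change -0.38 ± 0.07 (SE), adjusted p = 0.000776). TCOF1 was at 3619, 4015 and 3957 (log2 change -0.30 ± 0.05 (SE), adjusted p = 0.000189) and FBL at 3246, 3290.4 and 3195 (log2 change -0.22 ± 0.04 (SE), adjusted p = 0.00237). Both lay below every KO library. RRP12 was at 1086, 1175 and 1211 (log2 change -0.30 ± 0.06 (SE), adjusted p = 0.00166) and RRP9 at 596, 679 and 642 (log2 change -0.29 ± 0.08 (SE), adjusted p = 0.0158), again with no overlap with KO. The RRP9 call was lost without KO replicate 2 (-0.27).

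Other genes did not pass at day 1. NPM1 was at 17921, 15273 and 16362, where replicate 1 lay just above the lowest KO library (log2 change -0.15 ± 0.05 (SE), adjusted p = 0.0578), and it passed without that replicate (-0.21). MYBBP1A was at 1906, 2366 and 2296 and BOP1 at 909.6, 1248 and 1283, both with replicate 1 well below the others (adjusted p = 0.0626 and adjusted p = 0.311). MYBBP1A passed without day 1 replicate 2 (-0.27) and with the libraries scaled to equal medians (-0.20). IPO4 was at 76.6, 72.1 and 70.8, below KO in all libraries but not past the threshold (log2 change -0.37 ± 0.13 (SE), adjusted p = 0.0851).

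UTP20, the gene that fell in KO, did not turn back. It was at 1052, 835 and 884 at day 1, where replicate 1 fell among the KO libraries and the other 2 below them (log2 change -0.23 ± 0.07 (SE), adjusted p = 0.0418). That call was lost under 8 other settings (-0.26 to -0.16), among them each KO library, day 1 replicate 2 or day 1 replicate 3 left out. CAD, flat in KO against WT, was at 3422, 3751 and 3643 at day 1, below all KO and all WT libraries (log2 change -0.20 ± 0.05 (SE), adjusted p = 0.014). Without KO replicate 2 the CAD call was lost (-0.15). By role, the lower calls were 4 of 5 polymerase I genes, 5 of 6 snoRNP genes, 5 of 6 processome genes, 2 of 3 late small-subunit genes, 8 of 14 large-subunit genes, 2 of 3 scaffold genes and 2 of 3 polyamine and nucleotide genes. Over all tested genes 5.97% were lower and 4.94% higher. Only 9 genes of the set were lower under every setting run, so these role counts hold for the main fit. Among the 160 other pathway genes 26 were lower and 1 higher, with a median of -0.09. Those that were lower included POLR1G (-0.49), WDR3 (-0.37), RRP1B (-0.32), EXOSC5 (-0.30), NPM3 (-0.29), NOL6 (-0.27) and IMPDH2 (-0.17). IMPDH2 had already been lower in KO than in WT. The others were named as high in the same KO libraries, so part of their lower calls can follow from the choice. The EXOSC5 call was lost under 5 other settings (-0.32 to -0.20), among them any 1 KO library left out. That of IMPDH2 was lost when only the 6 libraries compared were fitted.

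The lower levels were still there at days 3 and 9. In day 3 against KO, 32 genes were lower and none higher, beside 13.9% of all tested genes lower and 13.5% higher, with a median of -0.24. In day 9 against KO, 31 were lower and none higher, beside 13.4% and 12.4%, with a median of -0.22. The day 9 count was 20 without KO replicate 2. Under every setting run, 24 were lower at day 3 and 18 at day 9. Both comparisons cross the codes in the column names. Of the 37 genes higher in KO, 26 were lower at day 1, 31 at day 3 and 30 at day 9, and 24 were lower at all 3 times. The 37 were picked as high in the same KO libraries, so part of these lower calls can follow from the choice. The matching share over all tested genes higher in KO was not counted. BOP1, DDX10 and WDR74 passed at none of them.

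At day 9 SRM was at 1299, 1404 and 1382 (log2 change -0.48 ± 0.06 (SE), adjusted p = 6.81e-06), close to its day 1 level. TCOF1 was at 3548, 3657 and 3611 (log2 change -0.40 ± 0.05 (SE), adjusted p = 1.01e-06) and FBL at 3129, 2971 and 2840.1 (log2 change -0.35 ± 0.04 (SE), adjusted p = 4.92e-06). In all of them the day 9 and KO libraries stood apart. NPM1, which had not passed at day 1, was at 14338, 14609.8 and 15476 at day 3 and 15290.0, 13779 and 13942 at day 9, below every KO library at both times (log2 change -0.36 ± 0.05 (SE), adjusted p = 2.08e-05). NOP16 was at 735.5, 642 and 606 at day 3 and 654, 727 and 754 at day 9 (log2 change -0.36 ± 0.07 (SE), adjusted p = 0.000412).

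IPO4 was at 75.6, 57.5 and 83.6 at day 9 (log2 change -0.40 ± 0.13 (SE), adjusted p = 0.0319), a set that spread widely while lying below KO; leaving out any 1 KO library or day 9 replicate 2 ended the call (-0.42 to -0.25). RRP12 was at 1099, 1267 and 1154 (log2 change -0.29 ± 0.06 (SE), adjusted p = 0.000861), RRP9 at 571, 692 and 663 (log2 change -0.29 ± 0.08 (SE), adjusted p = 0.007) and MYBBP1A at 2060.3, 2345 and 2124 (log2 change -0.22 ± 0.07 (SE), adjusted p = 0.0305). The MYBBP1A call was lost when KO replicate 1 or 2, or day 9 replicate 1 or 3, was left out (-0.23 to -0.18), and that of RRP9 without day 9 replicate 1 (-0.21). BOP1 was at 883, 1189 and 1177, below KO in every library but with day 9 replicate 1 inside the WT range (log2 change -0.34 ± 0.14 (SE), adjusted p = 0.113). PPAN was at 76.6, 94.2 and 75.6, within the KO range (adjusted p = 0.59).

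Some calls were made at only 1 end of the course. CAD, NOLC1, UTP20 and WDR43 were lower at day 1 and did not pass at day 9, and BYSL, IPO4, LAS1L, MYBBP1A, NOP58, NPM1 and ODC1 were lower at day 9 and did not pass at day 1. At day 9 NOLC1 changed by -0.14 (adjusted p = 0.0505) and WDR43 by -0.12 (adjusted p = 0.127). Many of these calls depended on the setting. The day 1 calls of NOLC1 (-0.20 to -0.14) and WDR43 (-0.18 to -0.14) were lost under 7 and 8 other settings, among them KO replicate 1 or 3, or day 1 replicate 2 or 3, left out, and NOLC1 passed at day 9 under 4. The day 9 calls of NOP58 (-0.19 to -0.14) and ODC1 (-0.17 to -0.13) were lost under 7 and 8, among them any 1 KO library, or day 9 replicate 2 or 3, left out and the authors' deposited table, and that of LAS1L without KO replicate 3 or day 9 replicate 3 (-0.17 to -0.11). At day 1 BYSL passed without day 1 replicate 2 (-0.26), and NOP58 (-0.23) and ODC1 (-0.22) without day 1 replicate 1. Passing at a single time does not show that the times differ, and the difference between days 1 and 9 was not tested. Of the 160 other pathway genes 46 were lower and 5 higher at day 3, beside 13.9% and 13.5% of all tested genes, and 35 lower and 4 higher at day 9, beside 13.4% and 12.4%. Those that were higher at day 9 included 3 of the genes that had fallen in KO, EFL1 (0.40 (adjusted p = 0.00056)), TAF1B (0.32 (adjusted p = 0.00954)) and EXOSC6 (0.28 (adjusted p = 0.0086)). The TAF1B call was lost without KO replicate 3 (0.28) and that of EXOSC6 without KO replicate 2 (0.24). These 3 genes were picked as low in the same KO libraries, so part of their higher calls can follow from the choice. The matching share over all tested genes lower in KO was not counted.

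**Figure D4:**
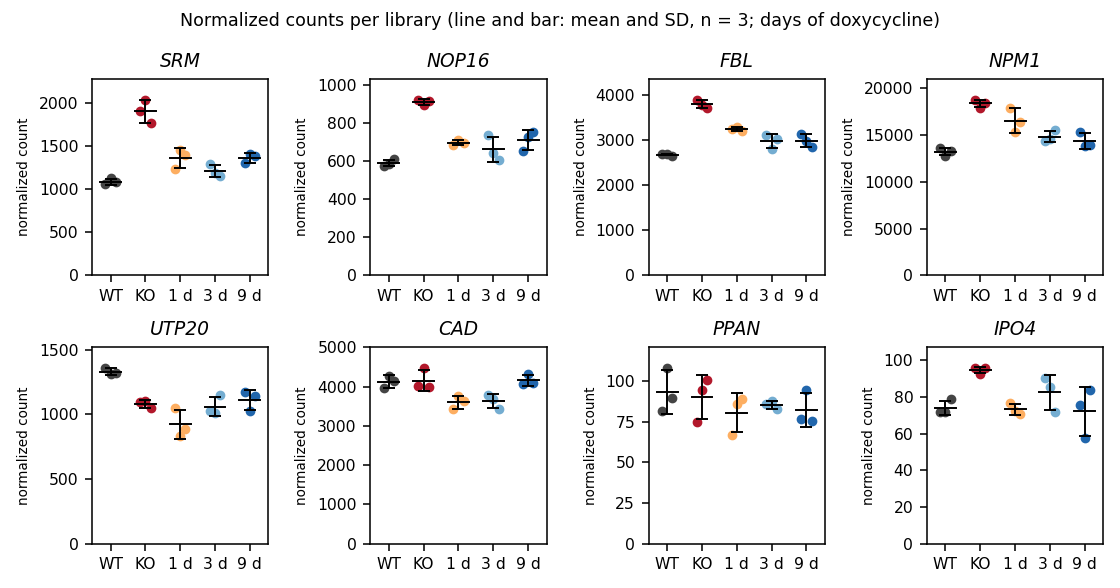
Normalized counts of 8 genes in each library (points), with the mean and SD of each group of 3 (line and bar); WT, KO and KO with doxycycline for 1, 3 or 9 days. SRM, NOP16, FBL and NPM1 peak in KO, UTP20 is highest in WT, CAD dips at days 1 and 3, and PPAN overlaps across groups.

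The plot of single genes shows the shapes found in the set. In 38 of the 41 genes the highest group mean was that of KO. UTP20 and PPAN were highest in WT, and CAD at day 9. The lowest group was WT in 31 genes. At day 9, 36 of the 41 means lay between those of WT and KO, as 35 did at day 1 and 33 at day 3. These counts share the same WT and KO means. They were not made over all tested genes, so they do not show a trait particular to the set.

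Day 9 was set against WT to ask how far the levels had returned. In day 9 against WT, 16 genes were higher and 1, UTP20, was lower, beside 10.4% of all tested genes higher and 11.4% lower, with a median of 0.14. Passing genes numbered 11 without WT replicate 1, 8 without WT replicate 2, 11 without WT replicate 3, 11 without day 9 replicate 1 and 11 without day 9 replicate 2. SRM, NOP16, MYBBP1A, GNL3 and DDX21 were higher under every setting run. This comparison also crosses the codes in the column names.

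The 13 genes that were higher in KO, lower at day 9 and yet above WT were SRM, NOP16, MYBBP1A, RRP9, GNL3, DDX21, EBNA1BP2, RRP12, NOP14, FBL, NOP56, DKC1 and NHP2. The calls against KO and of KO share the KO libraries, so part of this pattern can follow from the choice. The matching shares over all tested genes were not counted, here or for the other 17 genes below. SRM stood 0.32 above WT (adjusted p = 0.00076), MYBBP1A 0.30 (adjusted p = 0.00417), RRP9 0.28 (adjusted p = 0.0113) and NOP16 0.27 (adjusted p = 0.00555). For these 4 the lowest day 9 library was above the highest WT library. Single libraries ended some of the calls: that of RRP12 without any 1 WT library or day 9 replicate 2 or 3 (0.13 to 0.20), that of RRP9 without WT replicate 1 or day 9 replicate 2 or 3 (0.22 to 0.25), that of FBL without WT replicate 3 or day 9 replicate 1 (0.12 to 0.15) and that of UTP20 without WT replicate 1 or day 9 replicate 2 (-0.24 to -0.20). The calls of EBNA1BP2 (0.17 to 0.18), NOP14 (0.15), NOP56 (0.12 to 0.14), DKC1 (0.12 to 0.16) and NHP2 (0.12 to 0.19) were each lost without WT replicate 2, and all of these but that of NOP14 also without at least 1 day 9 library. The other 17 genes that had risen in KO and fallen at day 9 did not pass against WT, among them NCL (-0.01, 95% interval -0.10 to 0.08), NAT10 (0.03, 95% interval -0.07 to 0.13), POLR1A (0.05), TCOF1 (0.10) and NPM1 (0.12). Of these 17, NOP58 (0.16), PNO1 (0.18) and PES1 (0.14) passed when only the 6 libraries compared were fitted, PES1 also without day 9 replicate 1 (0.19), MRTO4 without day 9 replicate 2 (0.20) and LAS1L without day 9 replicate 3 (0.20). UTP20, at 1175.5, 1027 and 1139 at day 9, lay below every WT library (log2 change -0.26 ± 0.07 (SE), adjusted p = 0.0129).

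Days 3 and 9 were close to each other. Day 9 against day 3 lies within 1 code of the column names, and the median change was 0.03. In it 1 gene was higher and none lower, beside 3.03% of all tested genes higher and 4.39% lower. That gene was CAD, at 3781, 3679 and 3436 at day 3 and 4075, 4317 and 4093 at day 9, with no overlap (log2 change 0.20 ± 0.05 (SE), adjusted p = 0.0225). The call was lost, and the count of passing genes fell to 0, when replicate 2 or 3 of either day was left out (0.16 to 0.21). In 5 of the 41 genes every day 9 library lay above every day 3 library, beside 13.4% of all tested genes, and in 1 every day 9 library lay below, beside 13.7%. These were CAD and, without passing, SRM (0.17 (adjusted p = 0.11)), WDR12 (0.23 (adjusted p = 0.0621)), LYAR (0.18 (adjusted p = 0.153)) and WDR43 (0.05 (adjusted p = 0.685)) above, and TCOF1 (-0.10 (adjusted p = 0.2)) below. SRM and WDR12 passed when only these 6 libraries were fitted. Of the 160 other pathway genes 5 were higher and 2 lower, among them NPM3 (0.30 (adjusted p = 0.00124)), MTHFD2 (0.21 (adjusted p = 0.0128)) and IMPDH2 (0.14 (adjusted p = 0.037)). The IMPDH2 call was lost under 6 other settings (0.10 to 0.15), and that of MTHFD2 without day 3 replicate 3 or day 9 replicate 1 (0.19 to 0.20).

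MYC itself was also highest in KO. It was at 1875, 1978 and 1971 normalized counts in WT and 3934, 4053 and 4095.5 in KO, then at 2274, 2862 and 2681 at day 1, 2095, 1984 and 2051 at day 3 and 2508, 2633.5 and 2533 at day 9. Every KO library lay above all libraries of the other groups, and the day 3 libraries lay just above the WT libraries without overlap. The changes were 1.05 in KO against WT, -0.63, -0.98 and -0.65 against KO at days 1, 3 and 9, and 0.32 at day 9 against day 3, and all 5 passed. Whether the level of MYC had a part in that of the 41 genes was not tested.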

How the data were processed

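Poly(A) RNA of 15 DLD1 libraries was prepared with the Illumina TruSeq Stranded mRNA kit and sequenced on a HiSeq2500, per the labels' protocols. The authors used HISAT2 2.1.0 with hg19, HTSeq for counts and DESeq2 for normalization, per the submitters' processing notes. Neither annotation nor strand setting is stated. Each deposited value is a signal: the gene's count over the size factor of its library, hence relative to the other genes measured. All were whole multiples of 1 step (0.99 to 1.007, within 1e-06). The deposited log2 fold changes and adjusted p-values of the authors served only as their calls. Ensembl identifiers gave symbols for 22463 of 22706 genes; 1 gene with text in a cell was dropped.

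The model was limma (3.58.1, with statmod 1.5.0 under R 4.3.3) on log2(value + 1), using the 15134 genes that reached 10 in at least 3 libraries. It had 1 mean for each of the 5 groups, all libraries sharing the error estimate, and trended, robust eBayes moderation. Tests were two-sided, Benjamini-Hochberg adjusted over all genes tested, with a threshold of 0.05. The pseudocount makes fold changes of low genes understated. The planned count test was not run because the table holds normalized values. The fit was tested on simulated data. As separate cultures are not stated, the p-values speak of the spread among these libraries alone, which may be technical. The median standard error of a log2 change was 0.087 over all genes and 0.058 over the 41. Replicates correlated at r = 0.9908 to 0.9957 across genes (genes are not independent), so no pair of files was identical.

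The 41 genes and the lists of other pathway genes were chosen with earlier results of these data known. Values per library are given for the 6 largest passing changes in KO against WT and in day 9 against KO, genes passing against most of the set, genes passing nowhere, and 1 gene per role otherwise; of the other pathway genes, up to 3 per list with the lowest adjusted p in KO against WT and up to 2 against the list. MYC and USP7 were named as context, and CAD was added after its values were seen. Alternatives were scaling to equal medians, filters, pseudocounts, fits to the 6 libraries compared, leaving out libraries singly, a block for replicate number, and the calls of the authors. Promoter windows came from RefSeq GRCh38.p14, and overlaps and pseudogenes from GENCODE 29 names. Figures were drawn with matplotlib 3.10.9 under Python 3.11.15.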

Additional observations from a re-analysis of the deposited data

Results flagged for a closer look

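The change against KO differed between day 3 and day 9 for 9 of the genes named, by the test of day 9 against day 3, in which the KO libraries cancel. Over all tested genes 3.03% were called higher at day 9 and 4.39% lower. The libraries of these days did not overlap in 13.4% of all tested genes upward and 13.7% downward. CAD stood 0.20 higher at day 9 than at day 3 (log2, adjusted p = 0.0225, higher in all 3 day 9 libraries than in any day 3 library). MYC stood 0.32 higher (adjusted p = 0.00154, again without overlap). USP7 changed by -0.71 (adjusted p = 5.91e-09), with every day 9 library below every day 3 library. Of the other ribosome biogenesis and linked metabolism genes named, NPM3 stood 0.30 higher (adjusted p = 0.00124), MTHFD2 0.21 (adjusted p = 0.0128) and IMPDH2 0.14 (adjusted p = 0.037), each higher in all 3 day 9 libraries than in any day 3 library. The CAD call was lost under 4 other settings, that of MTHFD2 under 2 and that of IMPDH2 under 6. Of the 6 epithelial markers, CDH1 changed by -0.39 (adjusted p = 5.75e-08), KRT8 by -0.64 (adjusted p = 0.000284) and KRT18 by -0.61 (adjusted p = 1.4e-08), with no overlap. Groups of 3 are too small for a test of single outlying libraries.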

How the results depend on the processing

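Of 41 genes, those passing numbered 38, 28, 32, 31, 17 and 1 in KO against WT, days 1, 3 and 9 against KO, day 9 against WT and day 9 against day 3. With 1 library left out the counts ran from 37 to 38, 15 to 34, 25 to 30, 20 to 29, 8 to 13 and 0 to 1. With only the 6 libraries compared they were 39, 10, 38, 32, 22 and 3, lower at day 1 and higher in the other comparisons; the cause was not tested. Scaling to equal medians gave 38, 23, 30, 27, 14 and 1. The authors' deposited table called 37, 26, 31 and 25 in the first 4 comparisons. With the replicate number as a block the counts were 38, 33, 34, 32, 23 and 2; same-numbered libraries of different groups deviated together only weakly (correlations of -0.061 to 0.252, median 0.039), so the numbers were not taken as pairs. The genes that newly passed under the block were MYBBP1A, DDX10, WDR12, LYAR and NPM1 at day 1, and NOLC1, NOP58, WDR43, PNO1, LAS1L and NPM1 in day 9 against WT. The planned test on reads was not run. Of the single-gene results under other settings, 5357 kept their side of the threshold, 310 no longer passed and 73 newly passed. None that passed in the main fit or under the other setting changed sign. Changes of sign in results that passed in neither were not counted. The authors' scaling removes any change shared by all genes.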
